A study of Mus musculus with 7 samples.

Results

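The proteases that cut extracellular matrix and shed proteins from the cell surface, and the inhibitors of those proteases, were examined in mouse embryonic fibroblasts (MEFs) carried towards cardiac muscle with transcription factors. The genes were chosen by symbol: every matrix metalloprotease (Mmp), Adam, Adamts and tissue inhibitor of metalloproteases (Timp) gene with a numbered symbol in the platform annotation, plus the tolloid proteases Bmp1 and Tll1. The rule gave 77 genes of 19505 named on the array, each with 1 probe set. They were 32 Adam, 18 Adamts, 21 Mmp, 4 Timp and 2 tolloid genes.

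RNA was hybridised to 1-colour Clariom S mouse arrays from Affymetrix, in 7 groups of 1 array each. The MEF array came from fibroblasts that were not treated. Retroviruses for Gata4 and Tbx5 (GT) were given with Mef2c, as isoform 1 in GT/M1, isoform 6 in GT/M6, isoform 2 in GT/M2, and in GT/M2TAD as isoform 2 fused to the transactivation domain of MyoD, and the cells were collected 1 week later. The isoforms without that domain are called native below. Cells of 2 more arrays also received siRNA, a short RNA that lowers its target: the siEp300 array one that targets Ep300 (encoding p300, a histone acetyltransferase), the siCtrl array a control. The labels of these 2 arrays disagree, GT/M2 in the titles and GT/M2TAD elsewhere, so they were set against both. All 6 transduced arrays therefore carried Gata4, Tbx5 and a form of Mef2c, no array of virus without these factors was analysed here, and the strain of the embryos was not given in the sources used here. The labels name no selection of transduced cells, and in such bulk samples fewer cells of a type and less RNA per cell cannot be told apart.

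With 1 array per group there was no spread between replicates, no test and no p-value, and every difference below is between single arrays. Values are log2 signals, so a difference of 1 is 2-fold. The background limit of an array was the 95th percentile of its 5222 negative-control probes, which lay between 8.43 and 9.33. A gene was counted as higher or lower when it was at least 2-fold apart and its brighter signal reached the background limit of that array. Of the negative-control probes that reached the limit on either of a pair of arrays, 29.1% to 56.6% were themselves 2-fold apart, so calls close to the limit carry little weight. Where the dimmer signal lay below the limit, the difference is also given against the limit itself, as "at least".

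The labelled cell types were checked against marker lists. Of 6 measured fibroblast markers, 5 reached the background limit on MEF, and 4 to 5 did so on the other arrays. Cardiac markers reached it for 1 of 7 genes on MEF, for 6 on each transduced array without siRNA, and for 5 on siCtrl and siEp300. None of 7 macrophage markers reached it on any of the 7 arrays, and among 6 endothelial markers only Kdr did, on MEF. Of 6 cartilage and bone markers Sox9 alone reached it, on MEF, GT/M1 and GT/M6. Epithelial and mesothelial markers reached it for 0 of 7 genes on MEF and GT/M6, for 1, Krt19, on GT/M1, GT/M2 and GT/M2TAD, and for 2, Krt18 and Msln, on siCtrl and siEp300.

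Matrix metalloproteases are zinc enzymes that are made as inactive precursors and cut collagens, gelatin and other matrix proteins. Timps bind their active sites, and Timp3 also holds back several Adam and Adamts proteases. Adam proteases are mostly membrane proteins that release growth factors, adhesion proteins and Notch fragments from the cell surface, while Adamts proteases are secreted and cut proteoglycans or trim procollagens. Tolloids trim procollagens and free bone morphogenetic proteins (BMPs) from their antagonist chordin. In the heart these proteins are known for remodelling of the matrix, and in fibroblasts for turnover of the matrix that the cells lay down.

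Of the 77 genes, 22 reached the background limit on 1 or more arrays, 10 of them on all 7, and 55 stayed below it throughout. By family, this was 3 of 4 Timp genes, both tolloid genes, 7 of 18 Adamts genes, 5 of 21 Mmp genes and 5 of 32 Adam genes. The share for the members, 28.6%, lay beside 34.0% for all genes. By array, 11 members each reached the limit with GT/M1 and GT/M2, 13 each with GT/M6 and GT/M2TAD, 15 on MEF, 17 on siEp300 and 19 on siCtrl. The signals of the 22 genes are plotted array by array.

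**Figure D1:**
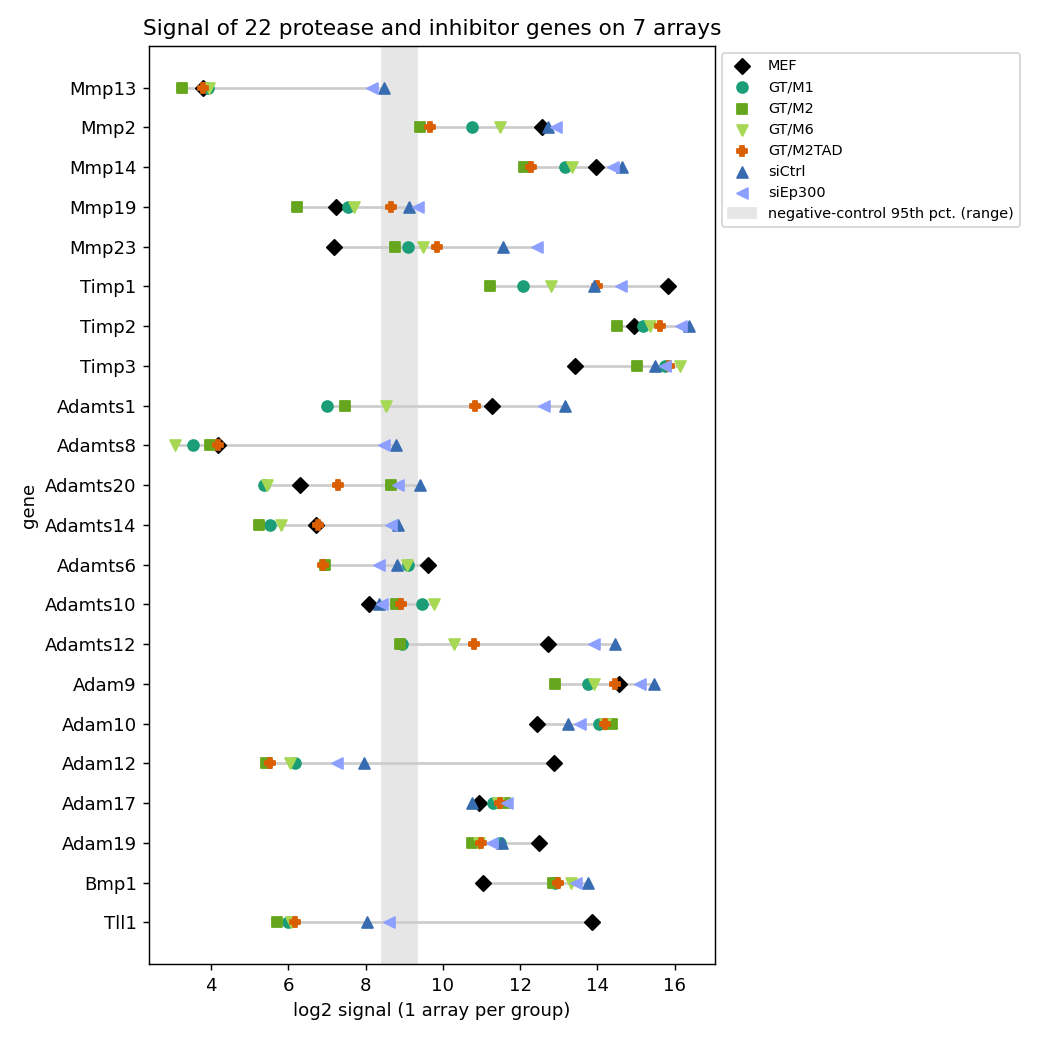
Log2 signal (horizontal axis) of the 22 genes (vertical axis, ordered by role) that reached the background limit on 1 or more arrays, 1 symbol per array. The grey band is the range of that limit, 8.43 to 9.33. Tll1 and Adam12 stood far higher on MEF than on the 6 transduced arrays, and Adamts12 was lowest on GT/M2 at 8.88 and highest on siCtrl at 14.45.

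A few members that lay far apart between arrays are shown with their promoter windows, as a reference for the values that follow. RefSeq gave such a window for 46 of the 77 genes and for 14 of the 22, from 250 bases before the start to 50 bases after it, on GRCm38.p6. Capitals mark matches on either strand. The AP-1 motif was searched as TGANTCA and the motif bound by TEAD factors as GGAATG. The motif of GATA factors such as Gata4 was searched as AGATAA and that of T-box factors such as Tbx5 as AGGTGT. The TATA box was searched as TATAAA, and the MEF2 motif by its usual consensus. No marked match overlapped another in the windows shown. Each window shown held a match, but the windows of Adamts12 and Mmp23, which also lay far apart between arrays, held none of these motifs. Tll1 and Timp1 were highest on MEF. Adamts1 was highest on the siRNA arrays, and Mmp13 and its neighbour Mmp3 are shown for the gene cluster they share.
Tll1, chr8:64205959-64206258, minus strand: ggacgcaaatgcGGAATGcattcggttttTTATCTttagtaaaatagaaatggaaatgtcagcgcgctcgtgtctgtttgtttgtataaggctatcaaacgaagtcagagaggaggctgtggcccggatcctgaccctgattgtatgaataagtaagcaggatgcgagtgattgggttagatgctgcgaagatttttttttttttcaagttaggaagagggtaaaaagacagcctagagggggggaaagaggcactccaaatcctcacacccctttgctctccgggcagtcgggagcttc
Timp1, chrX:20869916-20870215, plus strand: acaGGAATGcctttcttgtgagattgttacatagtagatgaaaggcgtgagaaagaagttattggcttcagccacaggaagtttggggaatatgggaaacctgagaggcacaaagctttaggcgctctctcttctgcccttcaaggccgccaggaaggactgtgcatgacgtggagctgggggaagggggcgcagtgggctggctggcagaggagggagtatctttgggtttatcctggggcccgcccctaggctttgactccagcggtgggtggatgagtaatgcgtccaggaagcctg
Adamts1, chr16:85803064-85803363, minus strand: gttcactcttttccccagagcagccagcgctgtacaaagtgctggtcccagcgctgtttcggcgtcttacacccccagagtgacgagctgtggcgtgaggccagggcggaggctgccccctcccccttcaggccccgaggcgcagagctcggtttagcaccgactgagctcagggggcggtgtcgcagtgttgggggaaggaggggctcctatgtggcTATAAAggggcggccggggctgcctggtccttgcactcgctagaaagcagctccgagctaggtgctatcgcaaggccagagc
Mmp13, chr9:7272264-7272563, plus strand: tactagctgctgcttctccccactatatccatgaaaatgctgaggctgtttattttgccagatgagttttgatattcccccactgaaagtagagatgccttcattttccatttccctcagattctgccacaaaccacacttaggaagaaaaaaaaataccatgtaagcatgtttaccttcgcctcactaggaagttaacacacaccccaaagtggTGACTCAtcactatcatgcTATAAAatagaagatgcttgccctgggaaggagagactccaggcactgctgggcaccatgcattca
Mmp3, chr9:7445572-7445871, plus strand: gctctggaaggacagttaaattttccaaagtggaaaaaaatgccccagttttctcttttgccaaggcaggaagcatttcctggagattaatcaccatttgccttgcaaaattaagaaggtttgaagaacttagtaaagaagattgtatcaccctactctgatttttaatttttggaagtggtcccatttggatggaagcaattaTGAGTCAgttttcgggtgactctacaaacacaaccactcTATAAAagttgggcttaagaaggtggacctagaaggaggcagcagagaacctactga

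The matches were few. Counted from the start of transcription, Tll1 held a TEAD match at -238 and a GATA match at -221, and Timp1 a TEAD match at -247. Adamts1 held a TATA match at -32. Mmp13 held an AP-1 match at -35 and a TATA match at -16, and Mmp3 held them at -46 and -7. Over the first listed window of each gene, 11 of 46 members (23.9%) held the AP-1 motif, against 7.93% of 27025 promoters of the same length. The members were Mmp1a, Mmp1b, Mmp3, Mmp7, Mmp10, Mmp13, Mmp20, Adam1b, Adam20, Adam25 and Adam29, of which Mmp13 alone reached the background limit on an array. Mmp1a, Mmp1b, Mmp3, Mmp10 and Mmp13 share a run of neighbouring genes, as do Mmp7 with Mmp20 and Adam20 with Adam25. The 11 are thus not 11 separate cases. The middle base of the searched motif was left free, and Adam20, Adam25 and Mmp20 matched as TGAATCA. In windows not listed first, Adam19 held the motif at -131 and Mmp12 at -44, and Adam19 reached the limit on all 7 arrays. The letters TATAAA, read on either strand and anywhere in the window, stood in 14 of 46 members (30.4%) and in 14.2% of all promoters. The matches in members lay from -219 in Adam29 to 36 in Adam34l, so not each is a TATA box. Mmp1a, Mmp1b, Mmp3, Mmp8, Mmp10 and Mmp13 share a run of neighbours, as do Mmp7 with Mmp20 and Adam6a with Adam6b. The 14 are thus not separate cases either. The MEF2 motif stood in 0 of 46 and in 0.566% of all, the T-box motif in 4.35% and 13.9%, the GATA motif in 8.7% and 11.4%, and the TEAD motif in 6.52% and 14.6%. A match is a description of the letters and not a bound site, and a window without a match says nothing of the factor.

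Arrays with each form of Mef2c were set against the MEF array, to see which protease and inhibitor genes differed in cells that received the factors. Lower members outnumbered higher ones on all 4 arrays without siRNA. On GT/M1, 4 members were higher and 7 lower, where 6.53% and 6.42% of all genes were. With GT/M6 the counts were 5 and 7 (7.37% and 6.01% of all genes), with GT/M2 3 and 10 (8.18% and 5.48%), and with GT/M2TAD 4 and 8 (8.35% and 6.4%). Higher members made up 3.9% to 6.49% of the 77, below the share of all genes on each array, and lower members 9.09% to 13.0%, above it. These shares rest on 3 to 5 members higher and 7 to 10 lower, so a few genes make up each gap. With GT/M6 the higher share, 6.49%, lay near the 7.37% of all genes. The median member differed from MEF by -0.18, -0.17, -0.3 and -0.12 in that order, and the median of all genes by 0.09, 0.08, 0.07 and 0.09. Of the 6 fibroblast markers, Col1a1, Col1a2 and Col3a1 were lower than MEF on all 4 arrays. Thy1 was lower with the native isoforms and higher on GT/M2TAD, at 1.66, Vim differed by -0.54 to -0.22, and Lum stayed below the limit. The part of these markers in the protease signals was not tested. These comparisons share the MEF array, which was not infected and for which no time of harvest was given, so the factors, infection and time in culture cannot be told apart.

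Among the inhibitors, Timp1 and Timp3 lay on opposite sides of MEF. Timp1, a secreted inhibitor of most Mmps, had a signal of 15.83 on MEF, 12.08 on GT/M1, 12.79 on GT/M6, 11.21 on GT/M2, 14.0 on GT/M2TAD, 13.92 on siCtrl and 14.6 on siEp300. It was highest on MEF and lowest on GT/M2, where the difference from MEF was -4.62, or 24.6-fold. The differences on GT/M1, GT/M6, GT/M2TAD and siCtrl were -3.76, -3.04, -1.83 and -1.91, each a 2-fold call. Timp3, the inhibitor that binds to the matrix, had 13.43 on MEF, 15.75 on GT/M1, 16.13 on GT/M6, 15.03 on GT/M2, 15.86 on GT/M2TAD, 15.49 on siCtrl and 15.75 on siEp300. It was lowest on MEF, by 1.60 or more, and stood 6.5-fold higher on GT/M6.

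Timp2, which also takes part in the activation of Mmp2 at the cell surface, moved less. Its signals were 14.96 on MEF, 15.18 on GT/M1, 15.36 on GT/M6, 14.52 on GT/M2, 15.61 on GT/M2TAD, 16.37 on siCtrl and 16.16 on siEp300. None of the 4 arrays without siRNA was 2-fold from MEF, and siCtrl was, at 1.41. Timp4, an inhibitor known from heart muscle, stayed between 3.14 and 4.64, below the background limit on all 7 arrays.

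Mmp2 and Mmp14 were dimmest on GT/M2 and GT/M2TAD. Mmp2, a gelatinase that is widely made by fibroblasts, had 12.56 on MEF, 10.75 on GT/M1, 11.47 on GT/M6, 9.4 on GT/M2, 9.66 on GT/M2TAD, 12.71 on siCtrl and 12.94 on siEp300. The differences from MEF were -1.81 on GT/M1, -1.09 on GT/M6, -3.16 on GT/M2 and -2.9 on GT/M2TAD, all calls. The siRNA arrays lay beside MEF, within 0.38. Mmp14, the membrane-type enzyme that activates Mmp2, had 13.97 on MEF, 13.17 on GT/M1, 13.34 on GT/M6, 12.09 on GT/M2, 12.28 on GT/M2TAD, 14.64 on siCtrl and 14.4 on siEp300. It was lower than MEF on GT/M2 at -1.89 and on GT/M2TAD at -1.69, while GT/M1 at -0.80 and GT/M6 at -0.63 missed 2-fold.

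Mmp23, a metalloprotease anchored in the membrane by its precursor part, went the other way. Its signals were 7.19 on MEF, 9.11 on GT/M1, 9.49 on GT/M6, 8.75 on GT/M2, 9.86 on GT/M2TAD, 11.57 on siCtrl and 12.45 on siEp300. MEF was the lowest array and lay below the background limit, so siCtrl was at least 6.77-fold higher and GT/M2TAD at least 2.07-fold. Against the limit, GT/M6 was at least 1.61-fold higher, which is short of 2-fold. Mmp19, a secreted protease of basement membrane proteins, lay between 6.23 on GT/M2 and 9.35 on siEp300, and reached the limit on siCtrl and siEp300 only.

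The collagenase Mmp13 reached the background limit on siCtrl alone, at 8.48 against a limit of 8.43. It had 8.17 on siEp300 and between 3.26 and 3.96 on the other 5 arrays. No fold is given for it, since 8.48 lies under the limits of the arrays it was set against. Mmp13 opens a run of 7 neighbouring genes in the RefSeq table of GRCm38.p6, followed by Mmp12, Mmp1b, Mmp3, Mmp1a, Mmp10 and Mmp8. The other 6 stayed below the limit on every array. Mmp12, the elastase known from macrophages, had its highest signals on siCtrl at 8.23, siEp300 at 7.99 and GT/M1 at 7.89. The 7 macrophage markers stayed below the limit there too, and their part in Mmp12 was not tested. Mmp3, a stromelysin, lay between 3.27 and 5.45. The gelatinase Mmp9, at 8.34 on MEF and between 3.65 and 6.01 elsewhere, also stayed below the limit.

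Among the Adamts proteases, Adamts1 and Adamts12 lay far apart between arrays. Adamts1, which cuts the proteoglycans aggrecan and versican, had 11.27 on MEF, 6.99 on GT/M1, 8.54 on GT/M6, 7.47 on GT/M2, 10.83 on GT/M2TAD, 13.15 on siCtrl and 12.62 on siEp300. Against MEF it was at least 3.84-fold lower on GT/M1, at least 5.46-fold on GT/M2 and at least 4.41-fold on GT/M6, and GT/M2TAD missed 2-fold at -0.45. The siRNA arrays stood above MEF, at 1.88 and 1.34. Adamts12, which cuts cartilage oligomeric matrix protein, had 12.73 on MEF, 8.94 on GT/M1, 10.3 on GT/M6, 8.88 on GT/M2, 10.81 on GT/M2TAD, 14.45 on siCtrl and 13.91 on siEp300. It was lower than MEF on all 4 arrays without siRNA, by 3.8-fold on GT/M2TAD and 14.4-fold on GT/M2, and 3.3-fold higher on siCtrl.

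The other Adamts genes that reached the background limit lay close to it. Adamts6, which shapes fibrillin microfibrils, had 9.61 on MEF, 9.11 on GT/M1, 9.08 on GT/M6, 6.94 on GT/M2, 6.9 on GT/M2TAD, 8.81 on siCtrl and 8.35 on siEp300. GT/M2 and GT/M2TAD were its dimmest arrays, while siCtrl and siEp300, labelled with one or the other, lay nearer GT/M1 and GT/M6. Adamts6 reached the limit on MEF and siCtrl alone, so this order is read mostly among signals below background. Against the limit it was at least 1.73-fold lower than MEF on GT/M2 and 1.48-fold on GT/M2TAD, both short of 2-fold. Adamts10, a relative that also acts on microfibrils, was lowest on MEF at 8.1 and highest on GT/M6 at 9.76. Adamts14, a procollagen N-proteinase, lay between 5.24 on GT/M2 and 8.84 on siCtrl, Adamts8 between 3.07 on GT/M6 and 8.78 on siCtrl, and Adamts20 between 5.36 on GT/M1 and 9.42 on siCtrl. Adamts14 and Adamts20 passed the limit on both siRNA arrays and on no other, and Adamts8 on siCtrl. Adamts5, beside Adamts1 in the genome, and Adamts15, beside Adamts8, reached the limit on no array, with Adamts5 at 8.34 on MEF and 7.77 on siCtrl.

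Adam12 was among the members furthest from MEF. This protease of mesenchymal cells, known from myoblast fusion and the shedding of heparin-binding EGF-like growth factor, had 12.89 on MEF, 6.18 on GT/M1, 6.05 on GT/M6, 5.43 on GT/M2, 5.52 on GT/M2TAD, 7.95 on siCtrl and 7.25 on siEp300. It passed the background limit on MEF alone. It was at least 11.8-fold lower on GT/M1, 13.5-fold on GT/M6, 16.8-fold on GT/M2, 14.4-fold on GT/M2TAD and 22.0-fold on siCtrl, where the size of the bound moves with the limit of each array. Adam19, a neuregulin-processing relative, had 12.49 on MEF and between 10.75 on GT/M2 and 11.54 on siCtrl on the others. Its calls without siRNA ran from -1.0 on GT/M1 to -1.74 on GT/M2.

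The general sheddases were bright on every array. Adam10, which cleaves Notch and cadherins, had 12.44 on MEF, 14.03 on GT/M1, 14.19 on GT/M6, 14.39 on GT/M2, 14.21 on GT/M2TAD, 13.23 on siCtrl and 13.56 on siEp300. MEF was lowest, the 4 arrays without siRNA were highest, and their differences from MEF lay between 1.59 and 1.95. Adam17, which releases tumour necrosis factor and ligands of the EGF receptor, lay between 10.76 on siCtrl and 11.66 on siEp300 and was called in no comparison. Adam9 had 14.56 on MEF, 13.75 on GT/M1, 13.92 on GT/M6, 12.91 on GT/M2, 14.46 on GT/M2TAD, 15.47 on siCtrl and 15.11 on siEp300. Of the arrays without siRNA, GT/M2 alone was 2-fold from MEF, at -1.65. The other 27 Adam genes never reached the limit. They include Adam18, Adam3, Adam5 and Adam32, testis genes that lie in a run of 5 neighbours with Adam9, the bright gene of that run.

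The tolloids moved in opposite directions. Tll1, a tolloid needed for septation of the embryonic heart, had 13.85 on MEF, 6.0 on GT/M1, 6.06 on GT/M6, 5.7 on GT/M2, 6.17 on GT/M2TAD, 8.03 on siCtrl and 8.62 on siEp300. MEF stood above every transduced array, and Tll1 was at least 22.9-fold lower on GT/M1, 26.4-fold on GT/M6, 32.7-fold on GT/M2, 28.1-fold on GT/M2TAD and 43.1-fold on siCtrl. Bmp1, the procollagen C-proteinase, had 11.04 on MEF, 12.91 on GT/M1, 13.31 on GT/M6, 12.84 on GT/M2, 12.98 on GT/M2TAD, 13.77 on siCtrl and 13.46 on siEp300. It was lowest on MEF and 3.5-fold to 4.8-fold higher without siRNA.

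Read across all arrays, 3 members, Timp1, Adam12 and Tll1, were at least 2-fold higher on MEF than on each of the 6 transduced arrays, where 3.36% of all genes were. Timp3 and Bmp1 were at least 2-fold lower on MEF than on all 6, where 3.68% of all genes were. The shares of the 77 members, 3.9% and 2.6%, were near those of all genes. The differences from MEF are laid out as a grid.

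**Figure D2:**
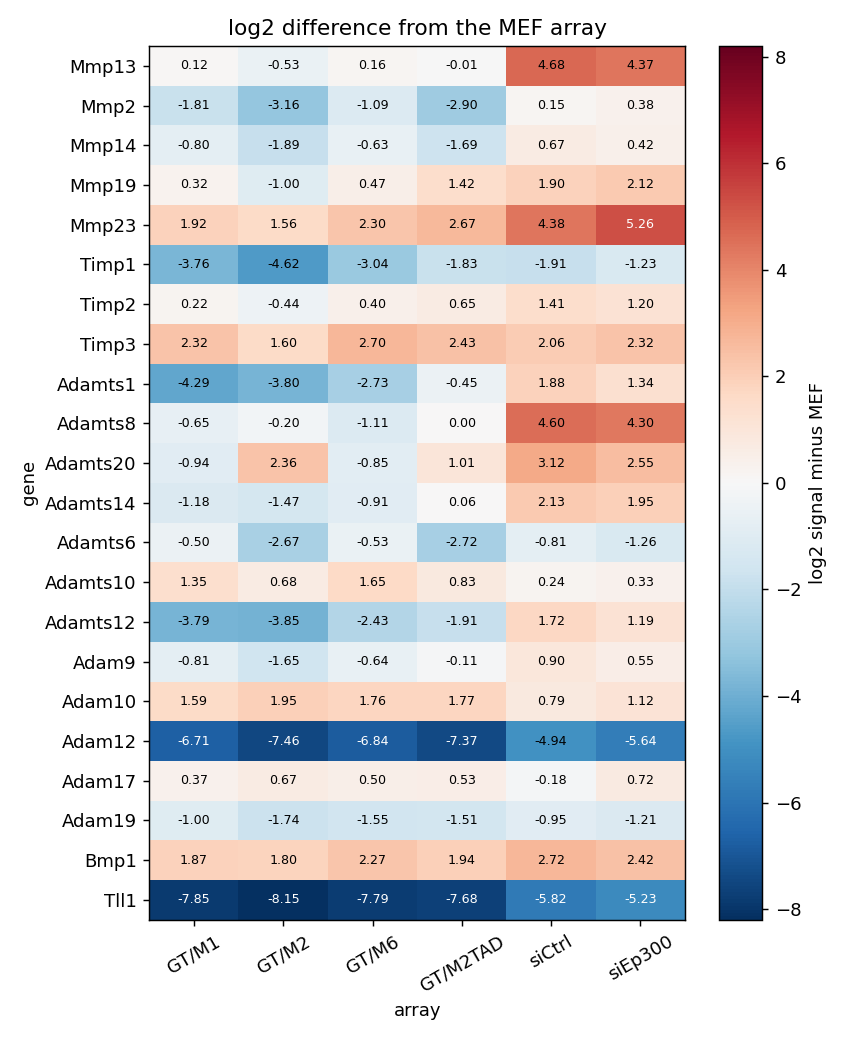
Log2 difference from the MEF array of the 22 genes (rows, ordered by role) on the 6 transduced arrays (columns), with the value in each cell and red for higher, blue for lower. Signals below the background limit enter as measured, so large differences such as those of Tll1 are bounded only as the text gives them, and Adamts1 and Adamts12 are blue without siRNA and red on the siRNA arrays.

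Among the native isoforms, the members called against GT/M2 were all dimmer on GT/M2. Adamts20, not called, went the other way, with 8.65 on GT/M2, 5.36 on GT/M1 and 5.45 on GT/M6. Its signal on GT/M2 lay just under the background limit of that array, 8.82. Against GT/M1, GT/M2 had 0 members higher and 2 lower, Mmp14 at -1.08 and Mmp2 at -1.35, where 0.984% of all genes were higher and 0.636% lower. Against GT/M2, 6 members were higher on GT/M6 and 0 lower, where 0.897% and 0.918% of all genes were. They were Mmp2 at 2.07, Timp1 at 1.58, Adamts12 at 1.42, Mmp14 at 1.25, Timp3 at 1.10 and Adam9 at 1.01. All 6 lay above the background limit on both arrays. GT/M6 and GT/M1 were closer, with 1 member higher on GT/M6, Adamts12, and 0 lower, where 0.292% and 0.082% of all genes were. Adamts12 was 1.36 higher there, and 1.96-fold higher at least against the limit of GT/M1.

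GT/M2 stood lowest of the 7 arrays for 6 of the 10 members that passed the background limit on all arrays: Mmp2, Mmp14, Timp1, Timp2, Adam9 and Adam19. Over the 3923 genes that passed it on all arrays, GT/M2 was lowest for 9.94%. The fibroblast markers did not move as one list there: of 6, Col1a2 alone was called, at 10.5 on GT/M2, 12.12 on GT/M1 and 13.01 on GT/M6. Against GT/M1, GT/M2 differed by -0.11 for Col1a1, 0.24 for Col3a1, 0.35 for Thy1 and 0.13 for Vim. The part of these markers in the protease signals was not tested.

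To see how the genes differed when isoform 2 carried the MyoD domain, GT/M2TAD was set against GT/M2. On GT/M2TAD, 6 members were higher and 0 lower, where 1.97% and 1.86% of all genes were. Adamts1 was 3.35 higher (at least 4.0-fold), Timp1 2.79, Adamts12 1.93, Adam9 1.55, Mmp23 1.11 (at least 2.06-fold) and Timp2 1.09. Mmp2, Mmp14 and Adam12 stayed within 2-fold, with signals of 9.66, 12.28 and 5.52 on GT/M2TAD and 9.4, 12.09 and 5.43 on GT/M2. The count rests on GT/M2 as the comparator. With GT/M1 in its place 3 members were higher, Adamts1, Adamts12 and Timp1, and 1 lower, Mmp2, where 2.27% and 1.15% of all genes were. With GT/M6 2 were higher, Adamts1 and Timp1, and 2 lower, Mmp2 and Mmp14, where 1.66% and 1.15% of all genes were. Adamts1 and Timp1 were thus higher on GT/M2TAD than on each array of a native isoform.

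Against MEF, siCtrl differed from the arrays without siRNA in its balance of calls. On siCtrl 11 members were higher and 3 lower, where 7.26% and 7.08% of all genes were. Higher were Adamts1, Adamts12, Bmp1, Mmp23, Timp2 and Timp3, which stayed 2-fold apart when set against the background limit, and Adamts8, Adamts14, Adamts20, Mmp13 and Mmp19, which did not. Lower were Adam12, Timp1 and Tll1. This comparison shares the MEF array with the 4 above. The median member was 0.13 higher than on MEF and the median of all genes 0.01.

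The siRNA pair was then set against both arrays its labels name, a choice made after the data were seen. On siCtrl 11 members were higher than on GT/M2TAD and 0 lower, where 1.79% and 3.07% of all genes were. Against GT/M2, 13 were higher and 1, Adam10 at -1.16, lower (short of 2-fold after median centring), where 3.55% and 6.34% of all genes were. Adamts12 was 3.63 and 5.57 higher, Adamts1 2.33 and at least 4.33, Mmp2 3.05 and 3.31, Mmp14 2.36 and 2.56, Mmp23 1.70 and at least 2.74, and Adam9 1.01 and 2.56. Set against the background limit where the dimmer signal lay below it, 6 of the 11 and 8 of the 13 remained. Timp1 and Timp2 were called against GT/M2 alone, at 2.71 and 1.85, with -0.07 and 0.76 against GT/M2TAD.

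Both siRNA arrays passed all 4 arrays without siRNA by at least 2-fold for 6 members, Adamts1, Adamts12, Adamts14, Mmp2, Mmp14 and Mmp23. This was 7.79% of the members and 0.882% of all genes, and no member lay the other way, against 0.631% of all genes. The gap between the lower siRNA array and the highest of the 4 was 3.10 for Adamts12, 1.79 for Adamts1, 1.70 for Mmp23, 1.24 for Mmp2 and 1.06 for Mmp14. No gap is given for Adamts14, whose siRNA signals of 8.84 and 8.67 lie under the limit of GT/M2TAD, 9.04. Mmp14 no longer met the rule after quantile normalization, nor Adamts14 with signals below the limit set to it. Of 6 fibroblast markers, 3 were higher on siCtrl than on GT/M2TAD, with Col1a1 at 15.83 and 13.61, and 1, Thy1, was lower, at 12.89 and 15.15. On the same arrays 4 of 7 cardiac markers were lower, with Myl7, the atrial light chain, at 10.67 and 13.16. The summed fibroblast markers had a log2 level of 19.23 on siCtrl, 18.95 on siEp300, 18.97 on GT/M2TAD and 18.6 to 18.83 with the native isoforms, a sum made up mostly of Vim, at 18.94 on siCtrl and 18.81 on GT/M2TAD. Their part in the protease signals was not tested.

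**Figure D3:**
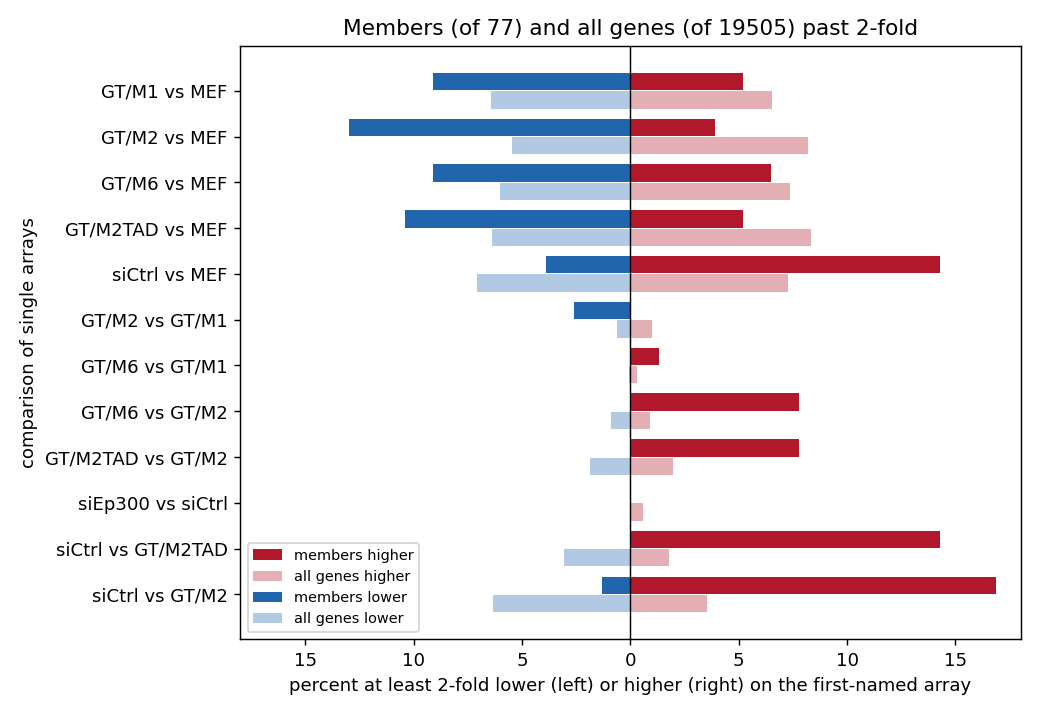
Percent of the 77 members (dark bars) and of all 19505 genes (pale bars) that were at least 2-fold lower (left, blue) or higher (right, red) on the first array named in each of 12 comparisons. For siCtrl against GT/M2TAD, 11 members lie to the right and 0 to the left.

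Ep300 itself had a signal of 9.9 on siCtrl and 9.47 on siEp300, a difference of -0.43 that is short of 2-fold, and 9.87 to 10.22 on the other 5 arrays. It was lowest on the array labelled siEp300. There, 0 members were higher and 0 lower than on siCtrl, where 0.6% and 0.0308% of all genes were. The bright members furthest apart were Adam17, 10.76 on siCtrl and 11.66 on siEp300, Mmp23, 11.57 and 12.45, and Timp1, 13.92 and 14.6. None reached 2-fold, and the median difference, siEp300 minus siCtrl, was -0.13 over the members and 0.14 over all genes. Below the background limit on both arrays, 4 members were past 2-fold, Mmp10, Adam7, Mmp1a and Adam4. Mmp10, a stromelysin, had 4.33 and 5.81, and Adam4 6.46 and 4.63. A single pair of arrays does not show that the genes are alike in these cells.

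**Figure D4:**
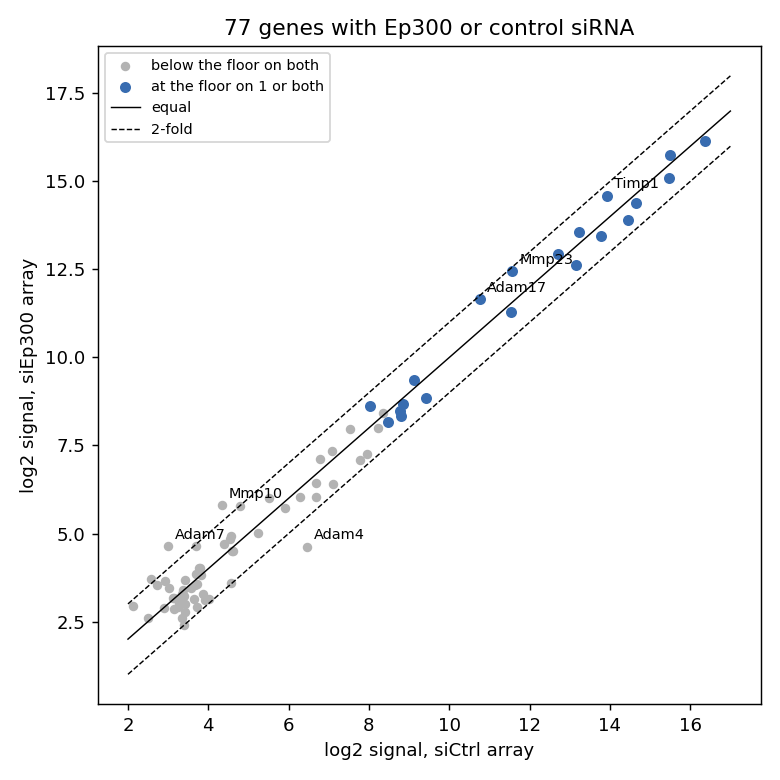
Log2 signal of the 77 members on the siEp300 array (vertical axis) against the siCtrl array (horizontal axis), in blue where a member reached the background limit on 1 or both arrays and in grey otherwise. The dashed lines mark 2-fold, and no blue point lies beyond them.

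Genes that act with these proteases were read from lists of regulators, Adamts-like proteins, proteoglycans and shed ligands. Of 22 measured protease regulators, 6 were higher and 1 lower than MEF on GT/M1, and 6 and 1 on GT/M6. The counts were 5 and 2 on GT/M2, and 5 and 1 on GT/M2TAD. Of all genes, 6.53% to 8.35% were higher and 5.48% to 6.42% lower on these 4 arrays. The median differences of the regulators were 0.41, 0.31, 0.22 and 0.28 for GT/M1, GT/M6, GT/M2 and GT/M2TAD. Reck, a membrane-anchored Mmp inhibitor, had 7.49 on MEF, 11.88 on GT/M1, 12.07 on GT/M6, 10.38 on GT/M2, 10.79 on GT/M2TAD, 10.56 on siCtrl and 10.47 on siEp300. MEF was its lowest array, and 6 arrays passed the background limit. Pcolce, which enhances procollagen cutting by Bmp1, had 12.28 on MEF, 14.84 to 15.47 on the 4 arrays without siRNA, 13.19 on siCtrl and 14.02 on siEp300. The tetraspanins Tspan5 and Tspan17, which escort Adam10, were also higher on all 4, with Tspan5 at 10.34 on MEF and 13.27 to 13.67 on these. Tspan17 had 7.09 on MEF, under the limit of 8.81 there. Its signals of 9.36 with GT/M1 and 9.75 with GT/M2 lay less than 2-fold above that limit. Of the other listed tetraspanins, Tspan14 stayed within 2-fold of MEF, at 9.84 there and 9.44 to 10.18 without siRNA. Tspan10, Tspan15 and Tspan33 stayed below the limit throughout. Sh3pxd2b, an invadopodium scaffold, was lower on all 4, with 10.51 on MEF.

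Of the 5 measured Adamts-like glycoproteins, which lack protease activity, 2 were higher with each native isoform and 1 on GT/M2TAD. Of all genes, 6.53% to 8.35% were higher on these 4 arrays. Adamtsl5 had 8.26 on MEF, 12.77 to 14.01 on the 4 arrays without siRNA, 12.99 on siCtrl and 12.86 on siEp300. MEF lay below the background limit, and the other 6 arrays passed it. Of 8 measured proteoglycans and matrix proteins that Adamts proteases cut or bind, 0 were higher than MEF without siRNA, and 1 was lower on GT/M6 and 2 on each of the other 3 arrays without siRNA. Of all genes, 5.48% to 6.42% were lower on these 4 arrays. Vcan, which encodes versican, a substrate of Adamts1, had 14.39 on MEF, 9.94 to 10.59 without siRNA, 10.98 on siCtrl and 10.89 on siEp300. Adamts1 stood above MEF on the siRNA arrays, and Vcan stood below it there as well.

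Of 13 measured ligands and receptors that Adam proteases shed, 1 was higher and 4 lower than MEF with each native isoform, and 1 and 2 on GT/M2TAD. Of all genes, 6.53% to 8.35% were higher and 5.48% to 6.42% lower on these 4 arrays. Cdh2, N-cadherin, was the higher one on all 4, with 13.42 on MEF and 15.83 to 16.17 on these. Jag1, a Notch ligand, had 12.92 on MEF, 8.94 on GT/M1, 9.68 on GT/M6, 7.96 on GT/M2, 8.37 on GT/M2TAD, 10.77 on siCtrl and 9.82 on siEp300. It was lower on all transduced arrays. Hbegf and Ereg, ligands of the EGF receptor, were lower with each native isoform and not on GT/M2TAD. Ereg had 11.49 on MEF, 7.62 on GT/M1, 8.47 on GT/M6, 7.29 on GT/M2, 10.75 on GT/M2TAD, 12.44 on siCtrl and 11.62 on siEp300. Ereg and Adamts1 had the same 3 arrays as their dimmest.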

How the data were processed

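Signals of 7 arrays were read from the deposited table of log2 values. The authors used SST-RMA in Affymetrix Expression Console 1.4, per the submitters' processing notes and the series text; its settings and a genome build are not given in the sources used here. RNA with an integrity number above 7 was used, and 100 ng entered labelling, per the labels' protocols. Of 28846 probe sets, 19572 had 1 symbol and 0 several, covering 19505 genes; for 55 genes with several sets, the set with the highest mean signal was kept. All 77 members matched the RefSeq table of GRCm38.p6 by Entrez identifier, with 0 symbols changed.

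Calls used a log2 difference of 1 and the 95th percentile of negative-control probes, in 12 comparisons, 2 of them added after the data were seen. No test was possible. The rule for named genes took members that reached that percentile on at least 1 array and were called in at least 1 comparison, plus the Timps and tolloids, with list genes from the lists; Adam17, Adam4, Adam7, Adamts5, Mmp1a, Mmp3, Mmp9, Mmp10, Mmp12 and genes named only for a motif or as neighbours were chosen after their values were seen. The members and lists were chosen with earlier results of these data known. Alternatives were median centring, quantile normalization, other limits on dim signals and other comparators. The call rule was run on simulated data as a check of the code, with large shifts in genes far above the limit and little noise. That check says nothing of signals near the limit or of spread between arrays. Depth in reads does not apply; the number of arrays limits precision. Python 3.11.15, pandas 2.3.3, numpy 2.4.6 and matplotlib 3.10.9 were used.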

Additional observations from a re-analysis of the deposited data

Results flagged for a closer look

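Adamts1 and Adamts12 lay on opposite sides of MEF in arrays without and with siRNA. Adamts1 was 1.88 higher than MEF on siCtrl and 1.34 higher on siEp300, and lay below MEF by at least 1.94 on GT/M1, 2.14 on GT/M6 and 2.45 on GT/M2, where its signal was under the background limit, with -0.45 on GT/M2TAD. Adamts12 was 1.72 and 1.19 higher on siCtrl and siEp300, and lay below MEF on the same 4 arrays, with -2.43 on GT/M6, -3.85 on GT/M2, -1.91 on GT/M2TAD and at least 3.39 on GT/M1. All these differences share the MEF array, each group is 1 array, and the difference was not tested.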

How the results depend on the processing

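Of 102 member calls, median centring kept 101, losing Adam10 in siCtrl against GT/M2, and added 6; quantile normalization kept all 102 and added 3. No call reversed. Median centring moved the median of all genes against MEF from 0.09, 0.07, 0.08 and 0.09 to -0.22, -0.25, -0.25 and -0.17 (GT/M1, GT/M2, GT/M6, GT/M2TAD) and left 0 members lower in siCtrl against GT/M2. The limit on dim signals moved the counts most. For comparisons between arrays, the shares of all genes under the other limits were not counted. Those member counts are therefore not a result about the members. With the limit at each array's median, and then with none, members higher and lower were 8 and 13, then 10 and 15, for GT/M1 against MEF; 9 and 17, then 9 and 21, for GT/M2; 10 and 11, then 13 and 13, for GT/M6; and 9 and 15, then 9 and 18, for GT/M2TAD. In siCtrl against MEF 6, then 7, were lower. Between isoforms the pairs were 1 and 7, then 1 and 9 (GT/M2 against GT/M1), 2 and 1 both times (GT/M6 against GT/M1), and 11 and 1, then 13 and 1 (GT/M6 against GT/M2). In GT/M2TAD against GT/M2, 2 were lower both times. They were 1 and 1, then 3 and 1, for siEp300 against siCtrl, and 17 and 1, then 19 and 2, for siCtrl against GT/M2TAD. In siCtrl against GT/M2, 3 were lower both times, and 23 higher with no limit. With signals below the limit set to it, an alternative added after the data were seen, members higher were 3 (GT/M6 against MEF), 6 (siCtrl against MEF), 0 (GT/M6 against GT/M1), 6 (siCtrl against GT/M2TAD) and 8 (siCtrl against GT/M2). For GT/M2TAD, GT/M1 as comparator gave 3 higher and 1 lower, and GT/M6 gave 2 and 2. Members with both siRNA arrays above the other 4 numbered 12 with either looser limit (1.34% and 1.42% of all genes). Members with MEF above all 6 numbered 5 with either (4.74% and 4.86%), and those with MEF below all 6 numbered 4 with no limit (6.82%). These changes follow from which dim signals each limit admits. No paired analysis was possible because each group is 1 array. Signal over background is the main limit: 55 of 77 members never reached it.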

Other observations

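Other enzymes of matrix turnover went separate ways against MEF. Of 16 measured genes in a list of other extracellular proteases and their partners, 4 were higher and 3 lower on GT/M1, 4 and 3 on GT/M6, 2 and 3 on GT/M2, and 2 and 3 on GT/M2TAD. Of all genes, 6.53% to 8.35% were higher and 5.48% to 6.42% lower on these 4 arrays. Plau, the urokinase-type plasminogen activator, had 11.59 on MEF, 5.63 to 6.0 on the 4 arrays without siRNA, 8.23 on siCtrl and 7.61 on siEp300, and passed the background limit on MEF alone. Plaur, its receptor, had 12.45 on MEF and between 4.46 and 6.18 on the 6 transduced arrays. Lox, which is not a protease but an oxidase that cross-links collagen, had 18.39 on MEF, 13.9 to 15.36 on the arrays without siRNA, 18.53 on siCtrl and 17.95 on siEp300. The lysosomal cathepsins Ctsb and Ctsl were higher than MEF on every transduced array, with Ctsl at 11.66 on MEF and between 13.94 and 15.39 on the others. Ctsk, cathepsin K, a collagen-degrading enzyme, passed the limit on the siRNA arrays alone, at 9.09 on siCtrl and 9.44 on siEp300 against 5.72 to 6.49 elsewhere.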
